A study of Arabidopsis thaliana with 8 samples.

Results

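The comparison described here asked what a spell of heat, given first, changed in *Arabidopsis thaliana* seedlings that were then kept without oxygen. 2 treatments were set side by side, each with 2 biological replicates and 1 Affymetrix ATH1 array per replicate: anoxia for 6 hours at 23 °C, and 38 °C for 90 minutes followed by the same 6 hours of anoxia. The 4 arrays belong to a set of 8, of which the other 4 are untreated controls and seedlings that were only heated. All seedlings were whole Columbia 0 plants, 4 days old, grown and treated in the dark in liquid medium with 30 mM sucrose. No group was heated and then kept for 6 hours with oxygen, so the lack of oxygen and the time after heating cannot be told apart where the effect of heat before anoxia differs from that of heat alone. The array holds 22746 probe sets besides its own controls. Those that reached a log2 intensity of 4 on 2 or more arrays, 14535 in number, were compared.

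Plant cells that run out of oxygen lose mitochondrial respiration and fall back on glycolysis and fermentation, and a set of hypoxia genes is switched on in most tissues. Heat unfolds proteins and switches on chaperones, which bind or refold them. Among the chaperones are the small heat shock proteins, which hold unfolding proteins, and HSP70 and HSP90 with their co-chaperones. A mild first stress can leave a plant better able to live through a later, harsher one, which is called acclimation, and seedlings heated before anoxia are a case in which this question is asked.

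Heat given first changed the transcripts of anoxic seedlings on a broad scale. A probe set was called at a limma adjusted p (Benjamini-Hochberg) below 0.05 and at least a 2-fold difference. By this rule 1857 probe sets were higher in heat then anoxia than in anoxia alone, 12.8% of those tested, and 2493 were lower, 17.2%. The rises were the larger changes. A difference of at least 16-fold was reached by 214 of the higher probe sets and by 20 of the lower ones, and a difference of at least 64-fold by 22 and 0. Of the higher probe sets 80 passed the filter at log2 4 only through the heat then anoxia arrays, and 58 of the lower ones only through the anoxia arrays. The higher probe sets had a median level of 6.69 on the log2 scale in anoxia and 8.87 in heat then anoxia, and the lower ones went from 7.67 to 6.00. Over all 14535 probe sets the median log2 fold change was -0.31, and with each array centred on its median it was -0.17. The share of rises among the calls was 42.7%, and 52.2% after such centring. The balance of rises and falls thus depends on the scaling. List medians below can be read against -0.31, and list counts against the 12.8% higher and 17.2% lower of all probe sets.

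Replicates correlated across the kept probe sets at 0.965 in anoxia and 0.979 in heat then anoxia. A control probe set for 25S ribosomal RNA stood apart on 2 arrays. It read 4.60 and 12.19 on the log2 scale in the 2 anoxia replicates and 4.47 and 11.46 in the 2 heat then anoxia replicates. The second replicate of each group was thus high, and both groups held 1 such array. A fit without these 2 arrays leaves 1 array in each anoxic group, so a call lost in it, here or below, can reflect the lost replication. Without these 2 arrays 1368 probe sets were higher and 1631 lower. The platform's annotation names 1 gene for 7823 of the 14535 probe sets, and of 635 loci on the gene lists used below 160 were named and measured. The labels' whole seedlings mean that fewer cells of a type and less RNA per cell cannot be told apart in any value below.

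Chaperone transcripts, already present in anoxic seedlings, stood at higher levels when heat had come first. The summed intensity of the measured small heat shock proteins was 28240 and 41340 in anoxia and 223800 and 252700 in heat then anoxia. After heat alone it was 219400 and 234200. Of 11 measured small heat shock proteins 8 were higher and 0 lower, beside 12.8% higher and 17.2% lower of all probe sets. Their median log2 fold change was 2.55. AT1G53540, a class I member of the cytosol, read 10.98 and 11.65 in anoxia and 14.86 and 15.12 in heat then anoxia. The groups did not overlap, and the log2 fold change was 3.68 ± 0.28 (SE, limma adjusted p = 8.01e-05), or 12.8-fold. AT1G52560, a small heat shock protein of the organelles, went from 11.41 and 11.58 to 15.10 and 15.20, a change of 3.65 ± 0.22 (adjusted p = 3.54e-05). Both were near background in controls, at 2.17 to 2.96, so anoxia by itself left them far above the control level. AT2G29500, also of class I, rose by 2.22, and ATHSP22.0, the member of the endoplasmic reticulum, by 2.55. AT5G37670 of the peroxisome rose by 2.55, AT5G51440 of the mitochondrion by 2.72, and AT1G54050, which is in class III, by 2.22. The other 3 members, AT5G47600, AT4G21870 and AT5G54660, stood at -0.11, 0.15 and 0.50 and were not called.

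The eighth member that rose, AT2G19310, an HSP20-like protein, differed from the others in its level in anoxia. It read 8.82 and 8.87 there, next to 8.66 and 7.28 in controls, and 14.24 and 14.18 in heat then anoxia. Its change of 5.36 ± 0.40 (adjusted p = 7.81e-05) was the highest of the list.

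Of 12 measured cytosolic chaperones and co-chaperones 10 were higher and 0 lower, beside 12.8% higher and 17.2% lower of all probe sets. The list's median log2 fold change was 3.88. AT3G09440, an HSP70 of the cytosol, went from 11.02 and 11.32 in anoxia to 14.76 and 15.01. Its 2 anoxia arrays lay within or just above the control arrays, which read 10.71 and 11.28, and heat first raised it by 3.72 ± 0.27 (adjusted p = 6.52e-05). Hsp70-2 went from 8.20 and 7.71 to 12.44 and 12.33, a change of 4.43 ± 0.26 (adjusted p = 3.32e-05), or 21.5-fold. Hop3, one of the co-chaperones that pass client proteins from HSP70 to HSP90, read 9.00 and 10.54 in anoxia and 14.20 and 14.67 in heat then anoxia, up by 4.66 ± 0.53 (adjusted p = 0.000553). Its relative Hop2 rose by 2.95, and Hop1 stood at -0.32 without a call. Fes1A, a nucleotide exchange factor for HSP70, rose by 4.65, AT3G12050, an activator of the HSP90 ATPase, by 3.76, and the J-domain protein AT2G20560 by 4.22. AT1G71000, likewise a J-domain protein, rose by 4.05 and AT5G48570, a peptidyl-prolyl isomerase of the FKBP class known as ROF2, by 4.00.

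HSA32, which keeps acquired heat tolerance from fading during recovery, was among the risers of this list. It read 9.28 and 10.21 in anoxia and 13.49 and 13.40 after heat and anoxia, a change of 3.70 ± 0.32 (adjusted p = 0.000141). The heat treatment came before the 6 hours at 23 °C without oxygen. The co-chaperone AT4G02450, of the p23 type, stood at -0.36 and was not called. No call in either chaperone list was lost when an array was left out, and the counts of 8 and 10 were the same without the 2 arrays with a high 25S signal. Many of these levels lie above 14 in heat then anoxia, and the highest value on any array was 15.76, so a rise that starts high has little room on this scale. How far that limited the fold changes was not tested.

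**Figure D1:**
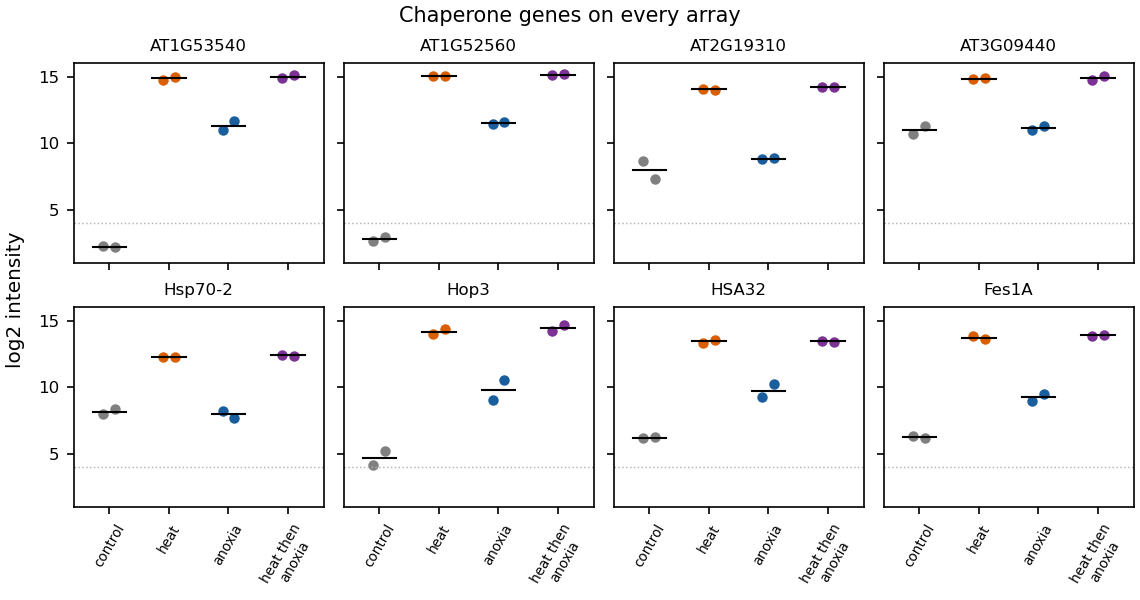
Log2 intensity (vertical axis) of 8 chaperone genes on every array, by group (horizontal axis). Points are single arrays, bars are means of 2, and the dotted line marks the filter at log2 4. In each panel both heat then anoxia arrays lie above both anoxia arrays. AT3G09440 and Hsp70-2 sit near their control level in anoxia, whereas AT1G53540 and AT1G52560 do not.

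Genes of the response to unfolded protein in the endoplasmic reticulum were higher too, by smaller amounts. Of 6 measured, 5 were higher and 0 lower, beside 12.8% higher and 17.2% lower of all probe sets. The list's median was 1.73. BZIP28, a transcription factor held in the membrane until it is cleaved during stress, read 8.03 and 8.65 in anoxia and 10.97 and 11.14 in heat then anoxia, up by 2.72 ± 0.27 (adjusted p = 0.000273). The J-domain protein of the same compartment, ATERDJ3B, went from 9.07 and 8.87 to 11.62 and 11.78, a change of 2.73 ± 0.25 (adjusted p = 0.000181). The calreticulin CRT1b, a calcium-binding chaperone, went from 10.33 and 10.21 to 11.92 and 11.88, up by 1.63 ± 0.23 (adjusted p = 0.0016), and BZIP17, a relative of BZIP28, rose by 1.83. In all 6 genes the arrays of the 2 groups did not overlap, as in all 1857 higher and all 2493 lower probe sets. The calnexin AT5G07340 was called at 1.06, and the call was lost without anoxia replicate 2 (0.76), without heat then anoxia replicate 1 (1.19) or 2 (0.92) and in a fit to the 2 groups alone. Without the 2 arrays with a high 25S signal it stood at 0.62. BZIP60, which is spliced rather than cleaved in this response, stood at 0.58 (adjusted p = 0.185) and was not called.

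Hypoxia genes went both ways. Of 23 measured core hypoxia genes, a set known to rise in many organs when oxygen is short, 5 were higher and 7 lower after heat, the median was -0.88, and without the 2 arrays with a high 25S signal 5 were higher and 4 lower. Both counts are larger shares of the list than the 12.8% and 17.2% of all probe sets. PDC2, a pyruvate decarboxylase and so an enzyme of ethanol fermentation, read 10.43 and 10.74 in anoxia and 12.67 and 12.74 in heat then anoxia. It rose by 2.12 ± 0.26 (adjusted p = 0.000769), or 4.33-fold. Controls read 8.62 and 8.99 and heated seedlings 10.98 and 10.61, so the 4 groups formed 3 levels, with heat and anoxia alone close together and both treatments in sequence above them. AT3G10020, of unknown function, went from 12.12 and 12.98 to 14.89 and 14.85, a change of 2.32 ± 0.31 (adjusted p = 0.00122). AT3G23170 rose by 2.29, AT4G17670 by 1.83 and AT3G03270, the universal stress protein HRU1 (named after its values were seen), by 1.82.

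The hypoxia genes that fell included some of the most reduced transcripts of the whole comparison. AT5G66985 read 9.39 and 8.84 in anoxia, against 5.79 and 7.60 in controls, and only 4.24 and 3.67 when heat had come first. The change was -5.16 ± 0.54 (adjusted p = 0.000374), which took it below the control arrays and close to background. AT5G10040 went from 9.48 and 8.89 to 5.13 and 5.16, a change of -4.04 ± 0.88 (adjusted p = 0.0103) whose call was lost without anoxia replicate 1, at -3.74, and without the 2 arrays with a high 25S signal, at -4.35. AT1G74940 stood at -2.67, with -2.27 and no call without anoxia replicate 2 and -1.69 without heat then anoxia replicate 1, and AT5G42200, a RING-type protein, at -1.79. The other 3 were named after their values were seen. AT5G44730 stood at -1.32 and the phytochrome signalling gene FHL at -1.65. FHL was not called without heat then anoxia replicate 2 or without both arrays with a high 25S signal, where it stood at -0.99, and it was called at -1.06 without anoxia replicate 2. AT1G33055, at -1.32, was not called when either heat, either anoxia or either heat then anoxia array was left out. The 11 members without a call stood between -1.26 and 0.24.

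Of 11 fermentation and pyruvate genes on the list 3 were measured. Among these 2 were higher, beside 12.8% of all probe sets. PDC2, counted above among the core hypoxia genes, was 1 of the 2. AT4G17260, lactate dehydrogenase, read 9.22 and 9.02 in anoxia and 10.64 and 11.01 in heat then anoxia, up by 1.71 ± 0.36 (adjusted p = 0.00907). Unlike PDC2 it was not raised in heated seedlings, which read 7.92 and 6.81 beside 7.78 and 7.74 in controls. Its call was lost without heat then anoxia replicate 2, at 1.53, and without the 2 arrays with a high 25S signal, at 1.43. PPDK, pyruvate orthophosphate dikinase, stood at -0.36 without a call. The 6 measured genes of glycolysis and sucrose breakdown held 0 calls and a median of -0.68. Among them TPI, triose phosphate isomerase, stood at -0.93 and GAPC2, glyceraldehyde-3-phosphate dehydrogenase, at -0.91 with limma adjusted p-values of 0.0196 and 0.0151, short of the 2-fold limit. TPI passed it after quantile normalization (-1.16) and without anoxia replicate 2 (-1.10) or heat then anoxia replicate 1 (-1.06), and GAPC2 after quantile normalization (-1.11) and without anoxia replicate 2 or heat then anoxia replicate 2.

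**Figure D2:**
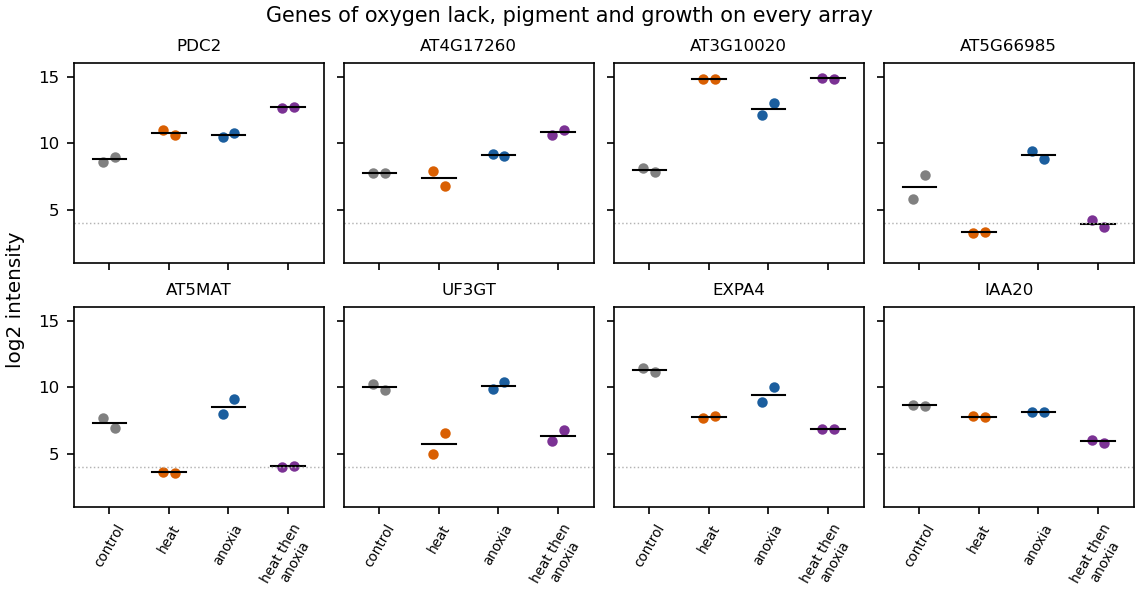
Log2 intensity (vertical axis) of 8 genes on every array, by group (horizontal axis). Points are single arrays, bars are means of 2, and the dotted line marks the filter at log2 4. PDC2, AT4G17260 and AT3G10020 are highest in heat then anoxia, and the other 5 genes are lower there than in anoxia.

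Single genes of calcium signalling and respiration rose strongly. Of 9 measured calmodulin-like proteins, which sense calcium, 3 were higher and 0 lower, beside 12.8% higher and 17.2% lower of all probe sets. The list's median was -0.57, and 6 of the 9 values lay below 0. AT1G21550 read 3.05 and 3.63 in anoxia and 10.80 and 10.40 in heat then anoxia, up by 7.26 ± 0.27 (adjusted p = 1.17e-05) from a level near background. CML37 went from 4.36 and 4.74 to 9.62 and 9.66, a change of 5.09 ± 0.23 (adjusted p = 1.48e-05), and CML23 rose by 2.75, with 2.18 and no call without heat then anoxia replicate 2. The hypoxia-responsive CML38 stood at -0.88 without a call. All 3 measured genes of alternative respiration and mitochondrial stress were higher, AT5G51440 of the first list among them. NDB2, an external NADH dehydrogenase that bypasses the proton-pumping complex I, read 7.61 and 7.22 in anoxia, 7.31 and 7.69 in controls, and 10.94 and 10.90 in heat then anoxia. It rose by 3.50 ± 0.26 (adjusted p = 7.2e-05), or 11.3-fold. AT2G21640, a marker of mitochondrial oxidative stress, rose by 1.36, with 1.25 and no call without the 2 arrays with a high 25S signal.

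Of 9 measured ATG8 and ubiquitin genes, 2 members of the ATG8 family, whose products coat autophagosomes, were higher, beside 12.8% of all probe sets. The list's median was 0.19. ATG8H read 8.76 and 9.49 in anoxia and 10.57 and 10.88 in heat then anoxia, up by 1.60 ± 0.32 (adjusted p = 0.00737). APG8A rose by 1.28, without a call when anoxia replicate 1 (0.95), either heat then anoxia array (1.37 and 1.19) or both arrays with a high 25S signal (1.51) were left out. The 7 others stood between -0.46 and 0.55. Of the 3 measured dehydration genes 1 was higher, 1 lower and 1 not called. COR47, a dehydrin, went from 12.39 and 12.71 to 14.86 and 14.66, up by 2.21 ± 0.35 (adjusted p = 0.00246). COR15B, a protein of the chloroplast stroma that protects membranes in the cold, went the other way, from 7.19 and 6.46 to 3.71 and 4.39, a change of -2.77 ± 0.62 (adjusted p = 0.0111). Heated seedlings read 8.61 and 8.46 for it, and its call was lost without anoxia replicate 1 (-2.41), without heat then anoxia replicate 1 (-2.43) and without the 2 arrays with a high 25S signal (-3.48). Its close relative COR15A read 9.14 and 7.32 in anoxia and 6.74 and 6.39 in heat then anoxia, a difference of -1.66 without a call (adjusted p = 0.0599). COR15A was called lower with a robust prior, with a replicate block, without anoxia replicate 2 (-2.57) and without the 2 arrays with a high 25S signal (-2.40).

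Most of the measured genes of phenylpropanoid, flavonoid and anthocyanin synthesis were lower. Of the 25 on the list 6 were measured, of which 5 were lower and 0 higher. Of all probe sets 17.2% were lower and 12.8% higher. The list's median was -2.64. AT5MAT, which adds malonate to the anthocyanin's sugar, read 7.96 and 9.11 in anoxia and 4.03 and 4.08 in heat then anoxia, a change of -4.48 ± 0.41 (adjusted p = 0.000195). AT4G14090, an anthocyanidin 5-O-glucosyltransferase, went from 10.16 and 11.01 to 7.30 and 6.28, a change of -3.80 ± 0.41 (adjusted p = 0.000407). UF3GT, which adds xylose, went from 9.87 and 10.36 to 5.94 and 6.79, a change of -3.75 ± 0.52 (adjusted p = 0.00147). These 3 decorate the finished pigment, and the anoxia arrays of all 3 lay near or above the controls. DFR, the reductase earlier in the pathway, stood at -1.45 and the flavonol glycosyltransferase UGT78D1 at -1.54. Both lost the call without anoxia replicate 2 and without heat then anoxia replicate 1, and DFR also without heat then anoxia replicate 2, so that 3 or 4 of the 6 remained called in those fits and 3 without the 2 arrays with a high 25S signal. UGT78D2 stood at -0.85 without a call.

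Some proteins that loosen or remodel the cell wall were lower as well. Of 9 measured expansins, which let walls extend, 5 were lower and 0 higher, beside 17.2% lower and 12.8% higher of all probe sets. The expansins had a median of -1.08. Heat minus control lowered 8 of the 9, with a median of -2.49. Their summed intensity was 5966 and 5379 in controls and 1424 and 2298 in anoxia. EXPA7, at means of 1.93 and 2.04, and EXPA18, at 2.25 and 2.29, were at background in both anoxic groups, so that a fall could not be read there. With the filter at log2 6 the list held 7 measured genes, 6 of them lower, with a median of -1.43. EXPA16 went from 6.76 and 6.36 to 2.70 and 2.70, below the filter, a change of -3.86 ± 0.53 (adjusted p = 0.00139). EXPA4 read 8.86 and 10.03 in anoxia and 6.87 and 6.86 in heat then anoxia, a change of -2.58 ± 0.37 (adjusted p = 0.0017), and EXPB3 stood at -1.65. EXPA9, at -1.43, and EXPA15, at -1.02, were less secure. EXPA9 lost the call without anoxia replicate 2, where it stood at -0.91, or either heat then anoxia array, and EXPA15 without anoxia replicate 1 or either heat then anoxia array, which left 3 expansins called without either heat then anoxia array and without the 2 arrays with a high 25S signal. Both also lost it after quantile normalization. Outside the lists, among the most reduced genes, AT4G24780, a pectate lyase, went from 8.55 and 8.91 to 5.47 and 3.84, a change of -4.07 ± 0.48 (adjusted p = 0.000646). GH9C2, an endoglucanase, stood at -3.04, and SBT4.12, a subtilisin-like protease, at -3.42. Of 5 measured xyloglucan endotransglucosylases 2 were lower, 1 higher and 2 not called, beside 17.2% lower and 12.8% higher of all probe sets. Their median was -0.51. XTH18 was lower at -1.52 and XTH20 at -1.03. XTH20 was called only with the 2 heat arrays, anoxia replicate 2 and both heat then anoxia arrays all in the fit. After quantile normalization (-0.83) or median centring (-0.89) XTH20 was not called either. XTH16 was higher at 1.34, and was not called without the 2 arrays with a high 25S signal, at 1.33.

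Class III peroxidases are secreted enzymes that stiffen or loosen walls. Of 33 measured, 9 were lower, 1 was higher and 23 were not called, beside 17.2% lower and 12.8% higher of all probe sets. The median was -0.67, against -0.31 over all probe sets, and 6 were lower without the 2 arrays with a high 25S signal. Heat minus control lowered 23 of the 33, with a median of -1.69. PRXR1, the brightest of those called under anoxia, read 14.67 and 14.88 in anoxia and 13.22 and 13.43 in heat then anoxia, a change of -1.45 ± 0.22 (adjusted p = 0.00235). AT5G64100 stood at -1.83 and AT3G21770 at -1.79. AT4G26010 alone was called higher, from 3.88 and 3.55 to 6.65 and 5.94, a change of 2.58 ± 0.44 (adjusted p = 0.00346). Its controls read 8.81 and 7.61 and its heat arrays 7.57 and 8.09, so the level after heat and anoxia lay between anoxia and the groups with oxygen.

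IAA20, an auxin-response repressor of the Aux/IAA family, read 8.17 and 8.11 in anoxia and 6.07 and 5.84 in heat then anoxia, a change of -2.19 ± 0.21 (adjusted p = 0.000263). PORB, the protochlorophyllide oxidoreductase that marks the shoot of a dark-grown seedling, went from 13.67 and 13.38 to 12.17 and 11.85, a change of -1.51 ± 0.23 (adjusted p = 0.00229). It was bright on all 8 arrays, between 11.85 and 13.95. AT5G07580, an ERF-type transcription factor, went from 9.19 and 9.33 to 5.29 and 5.22, a change of -4.01 ± 0.42 (adjusted p = 0.000353). All 7 measured cytosolic ribosomal proteins had negative values, with a median of -1.03. Beside 17.2% lower of all probe sets, 2 of these proteins were called lower and 5 were not called. Their anoxia replicates differed, as for AT2G01250 with 13.11 and 12.08. Without anoxia replicate 2 6 of the 7 were called lower, and without anoxia replicate 1 or either heat then anoxia array 0 were.

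**Figure D3:**
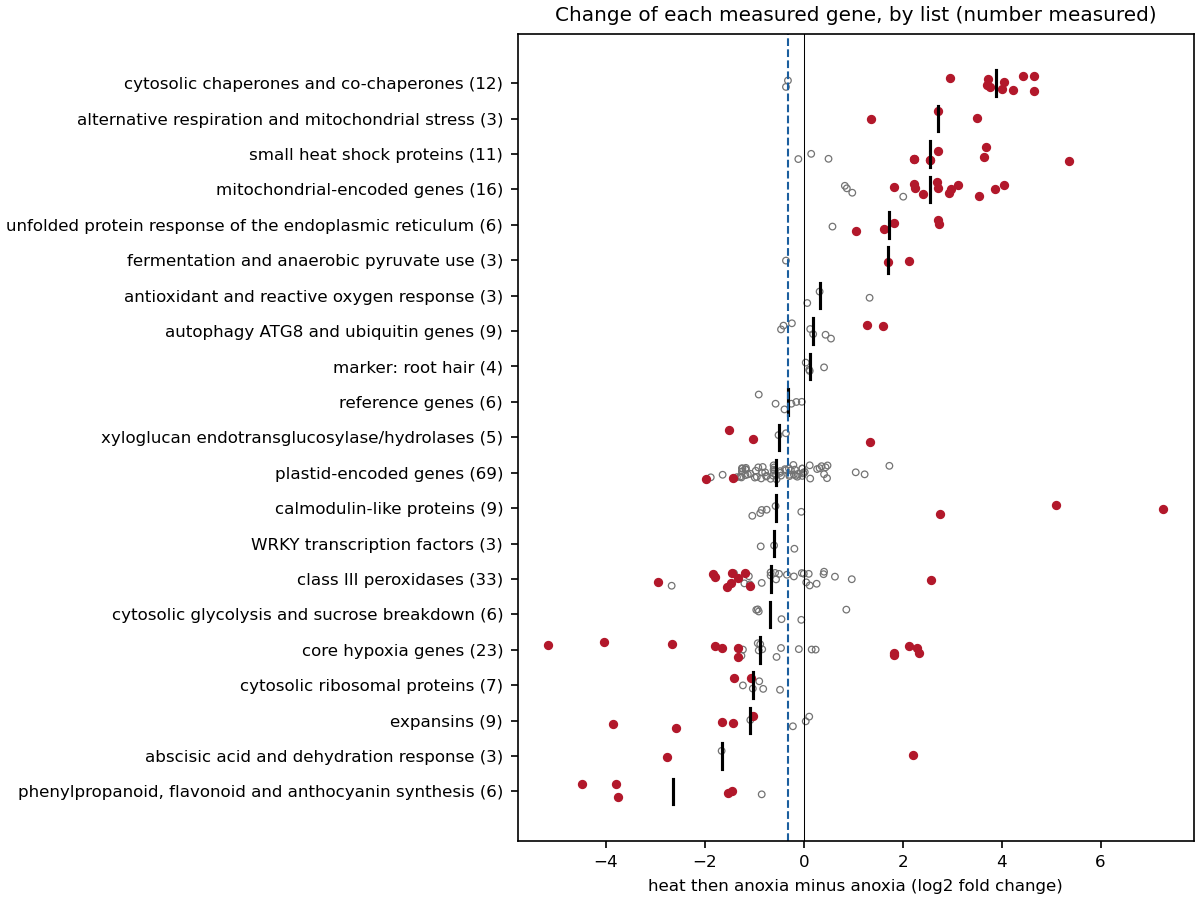
Log2 fold change, heat then anoxia minus anoxia (horizontal axis), of each measured gene of the lists with at least 3 measured genes (vertical axis, number measured in parentheses). Filled red points were called, open points were not, black bars are list medians, and the dashed line is the median of -0.31 over all probe sets. Chaperones and mitochondrial-encoded genes lie to the right, and pigment genes and expansins to the left.

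Transcripts encoded in the mitochondrion were higher after heat. The annotation gives 16 such genes, of which 12 were higher and 0 lower, beside 12.8% higher and 17.2% lower of all probe sets. The list's median was 2.55. Of several probe sets for nad1, a subunit of complex I, 1 read 7.99 and 8.07 in anoxia and 10.28 and 10.32 in heat then anoxia, up by 2.27 ± 0.21 (adjusted p = 0.000192). The same probe set read 3.29 and 3.39 in controls and 11.09 and 11.14 in heated seedlings. 1 of the nad5 probe sets rose by 2.93, cox2, a subunit of cytochrome oxidase, by 3.12 and nad4L by 4.05. Without the probe sets marked as cross-hybridising, 8 genes were higher, and without the 2 arrays with a high 25S signal 10 were. The nuclear genome holds copies of mitochondrial DNA, so that some of these probe sets may read both. Of 69 plastid-encoded genes 0 were higher and 2 lower, beside 12.8% and 17.2% of all probe sets. The plastid-encoded genes had a median of -0.56. Their summed intensity was 313700 and 387700 in anoxia and 158700 and 318900 in heat then anoxia, so the 2 heat then anoxia replicates differed by more than the means of the groups. Without heat then anoxia replicate 2 19 plastid-encoded genes were called lower, and without the 2 arrays with a high 25S signal 13 were.

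The heat effect before anoxia was then set beside the effect of heat alone, heat minus control, which was measured on the other 4 arrays. In that comparison 1524 probe sets were higher, 10.5%, and 2605 lower, 17.9%. Of the 1857 rises under anoxia 64.1% were also called higher after heat alone, and these 1191 probe sets are 78.1% of the heat-alone rises. Of the 2493 falls 44.0% were shared, or 42.1% of the heat-alone falls. Calls in opposite directions were rare, with 31 probe sets higher under anoxia and lower after heat alone and 8 the other way. Across the probe sets, which are not independent replicates, the 2 sets of log2 fold changes correlated at 0.71.

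A test of the difference between these heat effects, the interaction, called 542 probe sets above 0, 3.73%, and 356 below 0, 2.45%. Of the 4350 probe sets called in heat then anoxia against anoxia, 511 had a called interaction. Leaving out control replicate 1 gave 310 and control replicate 2 255, heat replicate 1 gave 267 and heat replicate 2 221. It was 287 and 672 without anoxia replicates 1 and 2, and 291 and 242 without heat then anoxia replicates 1 and 2. Without both arrays with a high 25S signal it was 160, and with a replicate block 782. Among the rises with a called interaction, 154 were smaller than the rise after heat alone, and 178 were larger. Of the larger ones 120 were not called after heat alone.

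Many chaperones were among the smaller rises. For AT1G53540 both heated groups ended at nearly the same level, 14.77 and 14.94 after heat alone and 14.86 and 15.12 in heat then anoxia, so the groups differed in where the rise began. Its differences were 12.63 after heat alone and 3.68 under anoxia, an interaction of -8.95 (adjusted p = 4.34e-05). The first starts from controls near background and both end near the top of the scale, so these sizes are set within the limits of the array's range. The interaction was called for 7 of 11 small heat shock proteins and 6 of 12 cytosolic chaperones. For the HSP70 genes that anoxia left near the control level it was not called, at -0.13 ± 0.38 (SE) for AT3G09440 (adjusted p = 0.869) and 0.35 ± 0.37 for Hsp70-2 (adjusted p = 0.619). The GTP-binding protein AT1G72660 rose by 9.37 after heat alone and by 5.71 under anoxia.

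**Figure D4:**
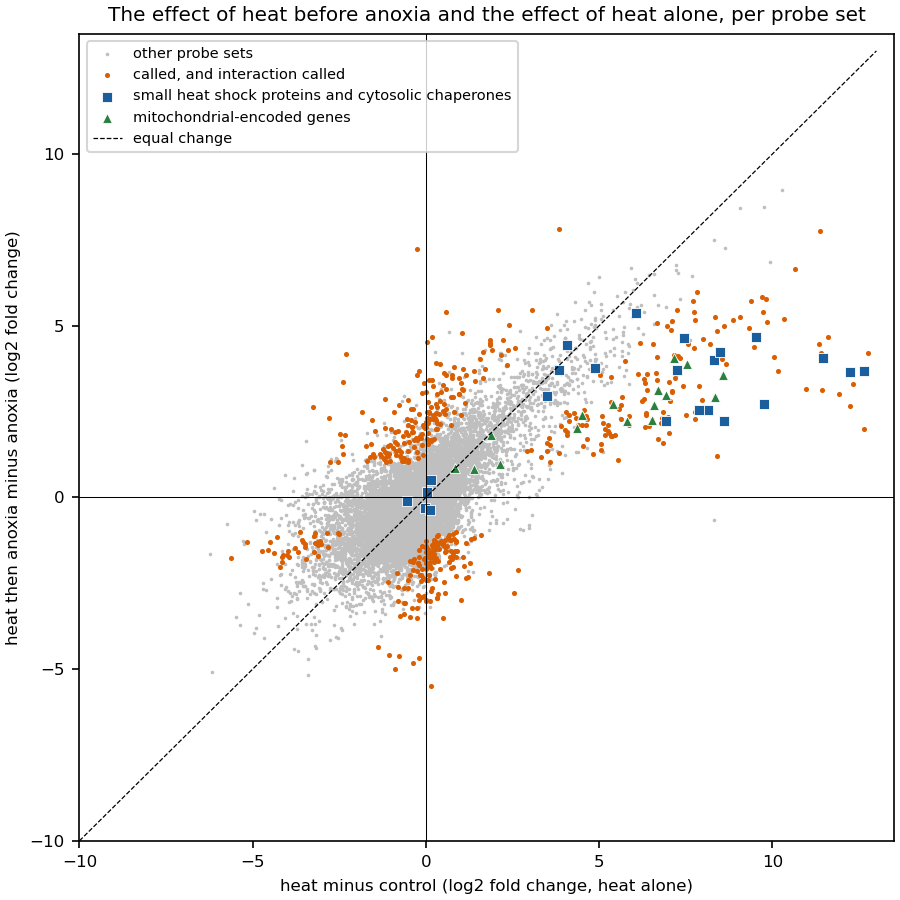
Log2 fold change of each of 14535 probe sets by heat before anoxia (vertical axis) against heat alone (horizontal axis), measured on separate arrays. Orange points were called in heat then anoxia against anoxia and in the interaction, blue squares are chaperones and green triangles mitochondrial-encoded genes. Points on the dashed line changed equally, and most chaperones and mitochondrial-encoded genes lie below it on the right.

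Other genes, picked for a high interaction, were higher in the sequence of both treatments than after heat alone. AT3G55840, a homologue of the nematode resistance gene Hs1pro-1, read 2.72 and 2.54 in anoxia, 2.70 and 2.43 in heat and 2.49 and 2.56 in controls, all near background, but 7.08 and 7.21 in heat then anoxia. The difference between heat then anoxia and anoxia was 4.52. AT1G51090, a protein with a heavy-metal-associated domain, read 2.46 and 2.77 in anoxia, 4.04 and 2.85 in heat and 7.02 and 7.78 in heat then anoxia, a difference of 4.79. Both genes passed the filter only through the heat then anoxia arrays, so their values are a description and support nothing further. AT4G36010, a thaumatin-like protein, read 5.91 and 5.74 in anoxia and 13.63 and 13.65 in heat then anoxia, a 226-fold rise of 7.82 ± 0.36 (adjusted p = 1.48e-05), where heat alone raised it by 3.84. The interaction calls of AT1G51090 and AT4G36010 were lost without the 2 arrays with a high 25S signal.

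For some genes the direction itself turned. AT3G04010, a glycoside hydrolase of the beta-1,3-glucanase type, was lower after heat alone, with 6.08 and 6.06 against 8.40 and 8.52 in controls. It was higher when heat preceded anoxia, with 9.84 and 9.95 against 6.02 and 7.04, a rise of 3.36 ± 0.33 (adjusted p = 0.000281) with an interaction of 5.75 (adjusted p = 0.00108). AT3G06070, of unknown function, changed by -2.30 after heat alone and by 4.18 in heat then anoxia against anoxia. Other genes, without a called turn, were called lower under anoxia but not after heat alone. AT3G22210 read 8.90 and 7.55 in anoxia and 7.68 and 7.78 in heat, but 3.14 and 3.93 in heat then anoxia. Its change was -4.69 ± 0.46 (limma adjusted p = 0.000271). AT2G03420 likewise kept a level of 8.56 to 9.85 in the other 3 groups and read 4.74 and 4.66 in heat then anoxia, a change of -4.61 ± 0.36 (adjusted p = 8.98e-05). In all, 144 of the falls had an interaction below 0, and 134 of these were not called after heat alone.

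**Figure D5:**
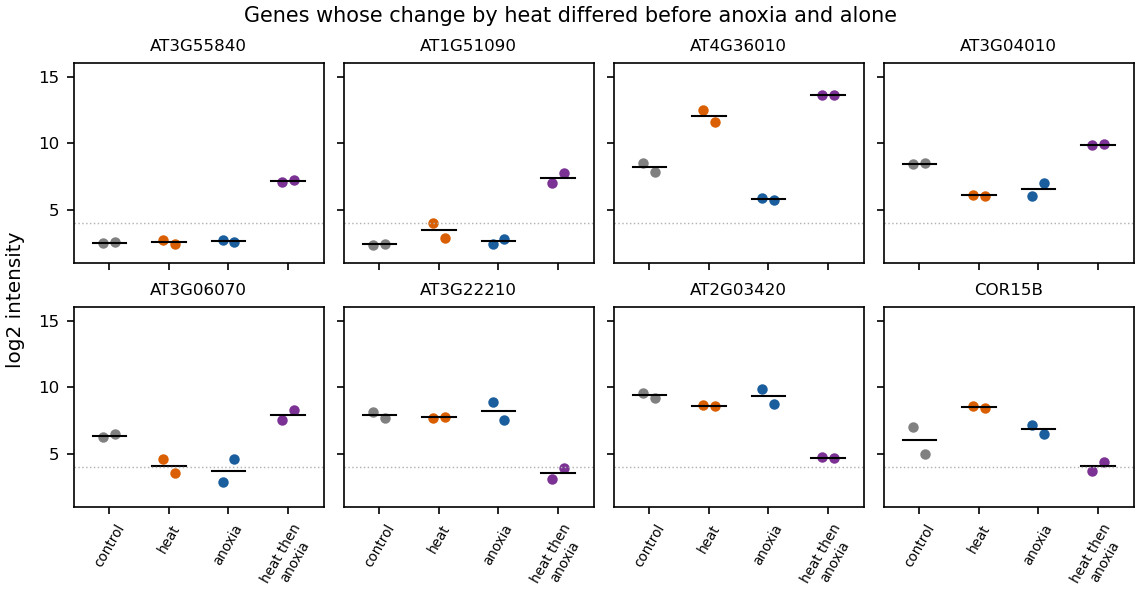
Log2 intensity (vertical axis) on every array, by group (horizontal axis), of 8 genes with a called interaction. Points are single arrays, bars are means of 2, and the dotted line marks the filter at log2 4. AT3G55840 and AT1G51090 are above log2 7 in heat then anoxia alone, and AT3G22210 and AT2G03420 are low in heat then anoxia alone.

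Of 6 measured genes often used as references 0 were called, and all 6 values lay below 0. They ran from -0.91 to -0.04 and their median was -0.32, beside -0.31 over all probe sets. GAPC2, the lowest of them, was called lower under the settings given above for it. Markers of root hairs were near background in both anoxic groups. The summed intensity of the 4 measured markers was 19.8 and 18.5 in anoxia and 24.3 and 19.2 in heat then anoxia, against 559.8 and 172 in controls. The effect of heat on them under anoxia could therefore not be read.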

How the data were processed

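Transcripts of whole seedlings were measured on 8 ATH1 arrays in 4 groups of 2. As deposited, each probe set has a linear intensity per array, computed with GCRMA per the submitters' processing notes. Its version is not given in the sources used here. GCRMA models background from probe sequence, so differences among dim probe sets are shrunk or lost. Median intensity was 36.8 to 53.2 per array, and 2 arrays a group limit the precision.

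The log2 of each intensity was taken with no further normalization, and probe sets with log2 at least 4 in at least 2 arrays were kept. A linear model of the 4 groups was fitted over all 8 arrays in limma 3.58.1 under R 4.3.3 (4 residual degrees of freedom), with adjustment over 14535 probe sets. Calls needed an adjusted p below 0.05 and 2-fold, and the procedure was tested on simulated data. Figures used matplotlib 3.10.9 in Python 3.11.15.

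Gene names came from the platform annotation through a RefSeq table (1 gene for 13513 probe sets, several for 503, none listed for 8730). A gene's brightest probe set stood for it in lists. Named genes are the 15 highest and lowest changes, the 10 highest and lowest with both means at least log2 6, the 6 brightest called each way, the 8 highest and lowest interactions, the members of short lists and 4 at each end of longer ones, with others marked. Not all are printed. The comparison, its gene lists and its naming rule were chosen with earlier results of these data known. No promoter sequences were at hand, so a planned motif count was not run. Alternatives were a filter at log2 6 or none, a robust prior with an intensity trend, the 2 groups alone, median centring, quantile normalization, a replicate block, an adjusted p below 0.01, calls without the fold limit, cross-hybridising probe sets removed, the mean of a gene's probe sets for lists, and each array left out. A fit without the 2 arrays high in 25S ribosomal RNA was chosen after seeing the data.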

Additional observations from a re-analysis of the deposited data

Results flagged for a closer look

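For 33 of the genes named, the change by heat differed between seedlings that then lost oxygen and those that were only heated. The limma interaction test passed the limits used for calls. Of all probe sets the interaction was called above 0 for 3.73% and below 0 for 2.45%. Genes were named in part for a high or low interaction, so the 33 cannot be read against these shares. The values below are the interaction on the log2 scale, heat then anoxia minus anoxia less heat minus control. Among small heat shock proteins it was -8.95 for AT1G53540, -8.60 for AT1G52560, -7.03 for AT5G51440, -6.38 for AT1G54050, -5.58 for ATHSP22.0, -5.34 for AT5G37670 and -4.72 for AT2G29500. Among cytosolic chaperones it was -7.42 for AT1G71000, -4.86 for Hop3, -4.30 for AT5G48570, -4.25 for AT2G20560, -3.54 for HSA32 and -2.79 for Fes1A. Several of these genes read near background in controls and near the top of the scale after heat, so the sizes are set within the range of the array. Hop3 was not called without heat replicate 2 (adjusted p from 0.00446 to 0.0512 over its alternatives), and Hop3 and Fes1A were not called without the 2 arrays with a high 25S signal.

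Some mitochondrial-encoded genes had smaller rises under anoxia too, and the interaction was called for 10 of the 16 on the list. The changes of nad7 (1.82 under anoxia and 1.87 after heat alone) and nad2 (0.87 and 0.83) were about equal. The interaction was -5.50 for 1 nad1 probe set, -5.41 for 1 nad5 probe set, -3.59 for cox2 and -3.10 for nad4L. The hypoxia genes AT3G10020 and AT3G03270 stood at -4.50 and -2.25, and the GTP-binding protein AT1G72660 at -3.66. The difference was 4.48 for AT3G55840, 3.75 for AT1G51090, 3.98 for AT4G36010, 5.75 for AT3G04010 and 6.48 for AT3G06070, which rose more, or rose instead of falling, under anoxia. AT3G55840 and AT1G51090 passed the filter only through the heat then anoxia arrays, so their values are a description. It was -4.50 for AT3G22210 and -3.83 for AT2G03420, which were called lower only in the comparison under anoxia. Without the 2 arrays with a high 25S signal nad4L, AT3G03270, AT1G51090 and AT4G36010 were not called.

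6 other differences rested on few arrays. COR15B, which rose after heat alone and was lower in heat then anoxia than in anoxia, stood at -5.30. It was not called without either heat array or anoxia replicate 1. AT2G21640 stood at -2.12, a call lost without control replicate 1 or 2, heat replicate 1 or heat then anoxia replicate 1. XTH16, at 1.85, was called only with both controls, heat replicate 2, anoxia replicate 1 and both heat then anoxia arrays in the fit. CML37, at -1.57, lost the call without any array but anoxia replicate 1, AT4G26010, at 2.96, without any but control replicate 2, and IAA20, at -1.35, without any of the 8. None of the 6 was called without the 2 arrays with a high 25S signal.

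A signal outside the probe sets compared was the control probe set for 25S ribosomal RNA. It read 12.19 in anoxia replicate 2 and 11.46 in heat then anoxia replicate 2, above the 2.79 and 6.20 of the control arrays. Its bearing on the results was not tested. The fit without these 2 arrays has no replicates in either anoxic group, so a call lost in it does not show an effect of the 25S signal.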

How the results depend on the processing

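The 1857 rises and 2493 falls kept their size within 1.5 times under most alternatives, and 0 probe sets were called in the opposite direction under any. With 1 array left out, rises ran from 1425 to 1906, falls from 1727 to 2649, shared rises from 1013 to 1166 and shared falls from 817 to 1000. Calls with a called interaction ran from 221 to 672, against 511, and the lone array of a group was then assumed to vary like the others. At an adjusted p below 0.01 the falls were 1288, the shared falls 571 and the calls with a called interaction 136. Without the 2 arrays with a high 25S signal the falls were 1631 and the calls with a called interaction 160, and 1323 rises and 1384 falls of the fit to all arrays were kept. With a replicate block 1902 probe sets were higher, 2690 lower and 782 had a called interaction. The replicate numbers share no stated origin. The replicate differences of the groups correlated at 0.022 (control and heat) to 0.298 (anoxia and heat then anoxia), so the pairing is not settled. The causes of these shifts were not tested. No named gene changed sign where called. GCRMA values near background limit falls, and values near 15 limit rises.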

Other observations

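Beyond the lists, several of the strongest rises concerned genes that anoxia alone left at or below the control level. AT3G48540, a deaminase, read 4.75 and 4.39 in anoxia and 10.77 and 10.47 in heat then anoxia, up by 6.04 ± 0.24 (limma adjusted p = 1.33e-05), with nearly the same rise of 5.98 after heat alone. AT1G58170, a dirigent-like protein, rose by 5.98 from 4.14 and 4.01, although controls read 6.27 and 6.31. AT5G64950, an mTERF protein of the organelles, rose by 5.90 and AT1G01940, a cyclophilin, by 5.29. AT5G62730, a transporter of the NRT1/PTR family, rose by 6.62 from 1.85 and 1.89, which is background. None of these 5 had a called interaction.

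The transcription factor WRKY22, raised in submerged plants, read 9.93 and 10.76 in anoxia and 9.50 and 9.99 in heat then anoxia, a difference of -0.60 that was not called. None of the 3 measured WRKY genes was called. STZ, a zinc finger protein of oxidative stress, read 9.86 and 10.14 in anoxia and 11.23 and 11.43 in heat then anoxia, a difference of 1.33 without a call (adjusted p = 0.375). Its controls were 2.94 and 7.29, and without either control array the same difference was called, with adjusted p-values of 0.0075 to 0.638 over the alternatives. ATL8, a RING protein of sugar starvation, stood at -2.38 and was not called without the 2 arrays with a high 25S signal. PR-1-LIKE stood at -3.81 and AT1G01390, a glycosyltransferase, at -4.40.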
